A study of Mus musculus with 21 samples.

Results

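The Foxa2-positive epithelium of the mouse embryonic pancreas was compared between embryonic days E12.5 and E15.5, over every gene the arrays could name. The members are the 6 arrays that the labels give as FVF+ at these days, 3 at E12.5 and 3 at E15.5, of 21 arrays in the series, and 19296 genes were tested. FVF, the Foxa2-Venus fusion, joins the endodermal forkhead factor Foxa2 to the yellow fluorescent protein Venus, and FVF+ cells are those that a sorter collected for it. All embryos carried this fusion on a mixed background given as C57-Bl6/SV129/CD1, no treatment is given, and the FVF- cells, sorted from the same organ at the same days, serve here only to show where the FVF+ change differed (2 arrays at E12.5 and 3 at E15.5). The sort selects on 1 protein, so each FVF+ array holds RNA of every pancreatic cell type that carries Foxa2. Therefore, a larger share of cells of a type and more RNA per cell cannot be told apart in any result below. The design text calls the replicates biological without saying whether they are embryos, litters or pooled pancreata. The p-values therefore describe only the spread within groups over all 21 arrays of the series, which may be technical.

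At the earlier of these days the pancreatic epithelium is largely a branching bud of multipotent progenitors, with an early wave of glucagon cells. Over the following days tip cells become acinar cells, which make and store digestive enzymes, while trunk cells give rise to ducts and, through Neurog3, to endocrine cells in the so-called secondary transition. Acinar and endocrine cells both live by regulated secretion: a protein enters the endoplasmic reticulum (ER), is folded and checked there, passes through the Golgi and is stored in granules until a signal releases it.

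Values are log2 signals of Affymetrix whole-transcript arrays, as deposited, so a difference of 1 is a 2-fold change. Differences are E15.5 minus E12.5 with the moderated standard error (SE, n = 3 arrays a day), and a gene is called, and is said to have risen or fallen, at an adjusted p under 0.05 from limma over all genes. The SE takes its spread from all 8 groups of sort and day. It can therefore be wider or narrower than the spread among the 6 arrays compared. The epithelial markers were high in these arrays. Foxa2 read 11.30, 11.12 and 11.16 at E12.5 and 10.87, 11.37 and 11.02 at E15.5, and its difference of -0.11 was not called. Epcam and Cdh1, which encode epithelial adhesion proteins, had group means of 7.07 and 7.82 in FVF- cells at E12.5, while every FVF+ array of these days lay at 11.60 or above for Epcam and at 13.03 or above for Cdh1. The hormone gene Gcg was already at 13.95 to 14.40 at E12.5, and at 14.12 to 14.13 at E15.5.

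Over all genes the correlation was 0.9916 to 0.9964 between arrays of the same day and 0.9636 to 0.9671 between days. Markers of other cells were below their FVF- level but not absent. The summed linear signal of 31 mesenchyme genes was 31525 to 41430 in FVF+ arrays at E12.5 and 30072 to 32299 at E15.5, against 107189 to 115516 and 172839 to 178562 in FVF- arrays at those days, and 13 of these genes rose and 4 fell. The first E12.5 replicate stood apart, with a mean log2 signal of 9.15 over these genes where the others had 8.48 and 8.35, and without it 20 mesenchyme genes rose. The risers were 7 of 20 endothelial genes (2 to 7 when each array was left out, lowest without the third E12.5 and then the second E15.5 and second E12.5 replicates), 6 of 25 macrophage and leukocyte genes (3 to 10, highest without the first E12.5 replicate and lowest without the second or the third E12.5 or the second E15.5), 4 of 15 red cell genes (3 to 6, highest without the second E12.5 replicate), 7 of 17 neural genes (4 to 8, lowest without the third E12.5 replicate) and 7 of 21 smooth muscle and mesothelium genes (5 to 12, highest without the first E12.5 replicate). In these lists 1 neural gene and 2 smooth muscle and mesothelium genes fell. Over all genes tested 27.6% rose and 19.3% fell. The share of risers was below that in the red cell list (26.7%) and the macrophage and leukocyte list (24%), and above it in the other lists. The neural sum was 8644 to 8753 at E12.5 and 10776 to 11764 at E15.5, against 15864 to 17074 and 16462 to 19738 in FVF- arrays. The third E15.5 array stood apart in 20 immediate early and heat shock genes, which respond to stimulation and stress, with a mean log2 signal of 10.80 against 9.55 and 9.91 in the others of that day and 9.08 to 9.56 at E12.5. Of these genes 9 rose and 0 fell, and 7 to 13 rose when each array was left out, with 7 without that array. The part these cells and genes have in the results was not tested. The coded array numbers in the file rise with the day, their meaning is not stated in the labels, and any order of processing behind them cannot be told apart from the day.

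Between E12.5 and E15.5, 9048 genes were called (46.9% of those tested), of which 5317 rose (27.6%) and 3731 fell (19.3%). Of these, 413 rose by at least 2-fold (2.14% of all genes tested) and 629 fell by as much (3.26%). The median difference over all genes was 0.09, and 6690 genes (34.7%) had all E15.5 arrays above all E12.5 arrays, against 4359 (22.6%) the other way. The gene groups with the highest shares of risers were those that make, fold, pack and release secreted protein, and the share of fallers was high among the SoxC factors, oncofetal genes, mitosis genes and progenitor transcription factors.

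**Figure D1:**
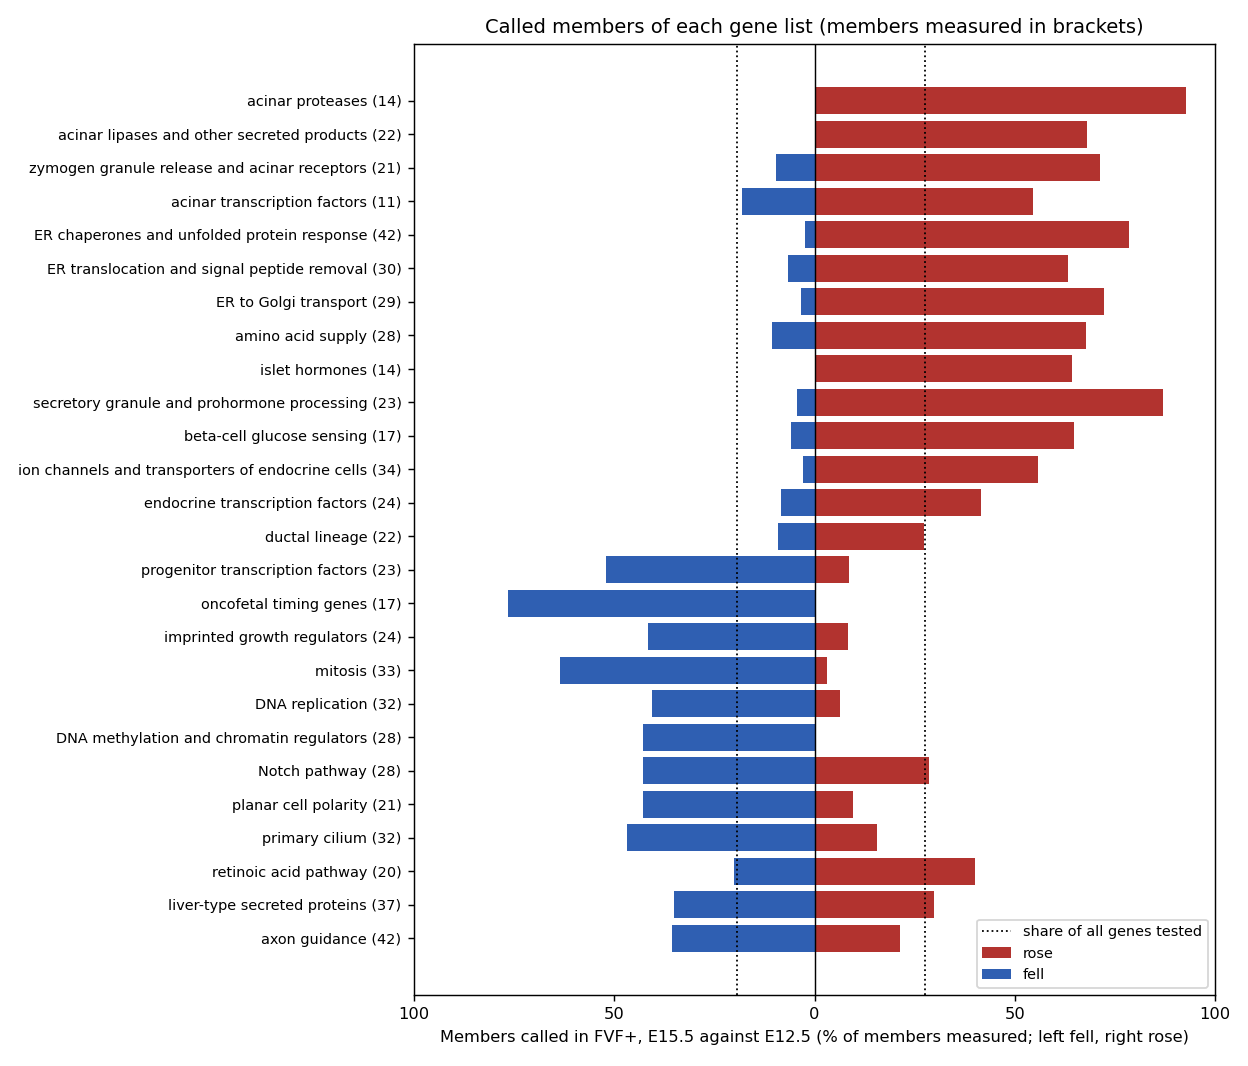
Share of the measured members of 26 gene lists that rose (red, right) or fell (blue, left) in FVF+ cells from E12.5 to E15.5, in percent, with the number measured in brackets and dotted lines at the shares of all genes tested (27.6% rose, 19.3% fell). Acinar proteases and granule genes extend furthest to the right, and oncofetal genes, among the lists drawn, furthest to the left.

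Digestive enzymes gave the largest rises. Of 14 acinar protease genes measured, 13 rose and 0 fell, with a median difference of 2.40 against 0.09 over all genes. In FVF- cells 9 of them rose too and 0 fell, with a median of 1.02, where 10.7% of all genes rose. The changes of the sorts differed (interaction called) for 11 with the higher change in FVF+ and for 2 with the lower. Cpb1, the zymogen of carboxypeptidase B, read 6.34, 6.31 and 6.45 at E12.5 and 12.33, 12.35 and 12.40 at E15.5. All E15.5 arrays lay far above all E12.5 arrays, and the difference of 5.99 ± 0.32 (63.7-fold, adjusted p = 9.01e-10) was the largest rise, predicted genes and small RNA genes passed over. Cela3b, an elastase, read 7.99, 7.47 and 7.79 at E12.5 and 12.99, 12.18 and 12.78 at E15.5 (4.90 ± 0.29, adjusted p = 2.14e-09). Cela2a, another elastase, read 8.07, 8.55 and 8.68 and then 13.08, 12.64 and 12.94, again with no overlap. Prss3, a trypsinogen, went from 6.08, 5.82 and 6.32 to 10.56, 10.61 and 10.51. The trypsinogens Try10 and Try5 rose by 5.19 and 3.54. Trypsinogen genes are near-identical copies, so signal may be shared among Prss3, Try10 and Try5.

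Cpa1, carboxypeptidase A1 and a marker of early tip progenitors, was the only protease gene not called. It read 14.68, 14.76 and 14.80 at E12.5 and 14.90, 14.92 and 14.84 at E15.5, a difference of 0.14 ± 0.23 (adjusted p = 0.642), and the highest mean level of any gene was 15.16, so its readings at both days lay near the top of the scale. Ctrb1, chymotrypsinogen B, was likewise high from the start, at 13.32, 13.88 and 13.91, and rose by 1.22 to between 14.86 and 14.96. That call was lost without the first E12.5 replicate (adjusted p = 0.0666).

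Of 22 lipases and other secreted acinar products, 15 rose and 0 fell, with a median of 1.03. In FVF- cells 7 of them rose and 0 fell, with a median of 0.37. Rnase1, pancreatic ribonuclease, rose by 5.38 ± 0.36, from 7.05, 7.12 and 6.98 to 12.69, 12.09 and 12.51. Zg16, a lectin of the zymogen granule membrane, rose by 3.02, Pnliprp2, a lipase-related protein, by 2.57, Cel, the bile-salt dependent lipase, by 2.55, and Sycn, the granule protein syncollin, by 2.50. Colipase, Clps, stood at 14.49, 14.31 and 14.41 at E12.5 and was not called (0.46 ± 0.28, adjusted p = 0.178). With only the arrays compared in the fit it was called (adjusted p = 0.00329). These readings lay near the top of the scale, where the highest mean level of any gene was 15.16. Pla2g1b and Dnase1 were not called either, though Dnase1 was called as a fall after quantile or cyclic loess normalization.

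The 300 bases around the RefSeq start sites (250 before and 50 after, GRCm38.p6) were searched on both strands for the E-box CACCTG, a form of CANNTG, the motif of basic helix-loop-helix factors such as Ptf1a and Bhlha15. CACCTG was present in 9 of the 11 protease genes with a promoter in the table (81.8%), against 3346 of 15138 tested genes with one (22.1%), and in 7 of 17 lipases and other products (41.2%). The 9 include the elastases Cela1, Cela2a, Cela3a and Cela3b and the trypsinogens Prss2, Prss3 and Try4. Related copies may share promoter sequence, so these matches may not be separate occurrences. CANNTG, which contains CACCTG, was in 11 of 11 and in 71.3% of all. All 9 proteases with CACCTG rose, as did 4 of the 7 lipases and other products. In the whole lists 13 of 14 and 15 of 22 rose. The promoters of Cpb1 and Cela3b are shown as the strongest risers that hold it, with the match or its reverse complement in capitals. The Cpb1 window is chr3:20275684-20275983 on the minus strand, with its match starting at base -94 from the start site. The Cela3b window is chr4:137430471-137430770 on the minus strand, with matches at -83 and -46. A match is a description of the letters and not a binding site.
Cpb1: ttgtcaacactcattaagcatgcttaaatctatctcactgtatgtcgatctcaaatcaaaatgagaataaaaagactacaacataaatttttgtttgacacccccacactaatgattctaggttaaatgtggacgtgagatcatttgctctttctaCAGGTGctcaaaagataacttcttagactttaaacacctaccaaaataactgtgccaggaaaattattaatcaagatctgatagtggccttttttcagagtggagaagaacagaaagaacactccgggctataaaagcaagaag
Cela3b: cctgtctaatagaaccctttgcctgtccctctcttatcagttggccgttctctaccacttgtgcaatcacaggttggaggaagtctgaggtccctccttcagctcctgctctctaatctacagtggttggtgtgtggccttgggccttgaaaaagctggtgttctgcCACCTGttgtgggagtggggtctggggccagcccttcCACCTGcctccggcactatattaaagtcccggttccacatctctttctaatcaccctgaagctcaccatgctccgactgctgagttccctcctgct

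**Figure D2:**
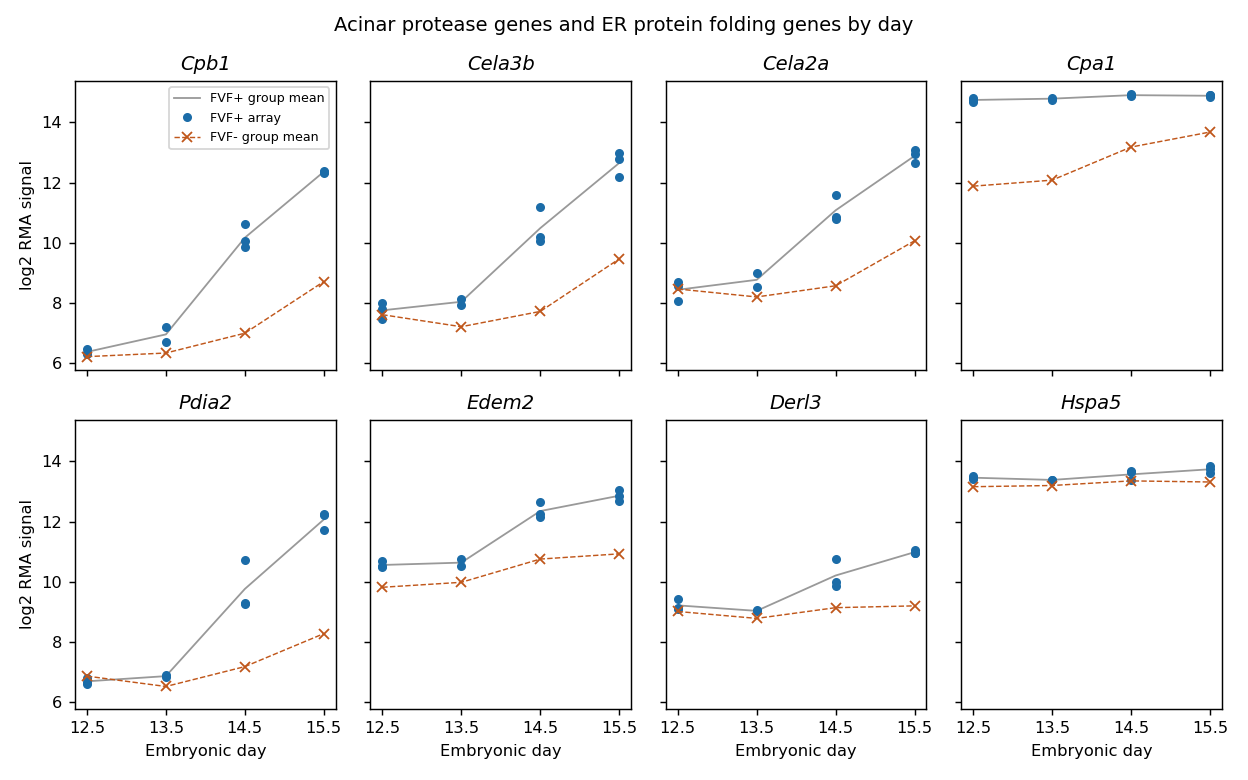
Log2 signal of 4 acinar enzymes and 4 ER folding genes by embryonic day. Points are single FVF+ arrays, the solid line is the FVF+ group mean, and crosses with a dashed line are the FVF- group mean. Cpb1, Cela3b, Cela2a and Pdia2 climb by over 4 log2 units in FVF+ cells, while Cpa1 and Hspa5 stay near their E12.5 level.

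Genes that store and release zymogen granules rose as well. Of 21 genes of granule release and acinar receptors, 15 rose and 2 fell, with a median of 0.84. In FVF- cells 5 of them rose and 2 fell, with a median of 0.17. Aqp8, a water channel, read 6.85, 7.11 and 6.89 at E12.5 and 10.85, 10.08 and 10.73 at E15.5 (3.60 ± 0.28, adjusted p = 4.24e-08). Rab3d, a small GTPase on zymogen granules, rose by 2.52 ± 0.16, and Tmed6, a cargo receptor of the early secretory path, by 2.68 ± 0.27. Aqp12, an acinar aquaporin, rose by 2.38, and Chrm3, the muscarinic receptor through which acetylcholine triggers secretion, by 2.06. The members that fell were the SNARE proteins Snap23 (-0.77) and Stx3 (-0.39), and the call of Stx3 was lost without the second replicate of either day. The cholecystokinin receptor Cckar (0.84) was not called as reported, but was called with only the arrays compared in the fit and after cyclic loess normalization.

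Among 11 acinar transcription factors, 6 rose and 2 fell, with a median of 0.69. In FVF- cells 4 of them rose and 0 fell, with a median of 0.61. Bhlha15, also named Mist1, which scales up the secretory apparatus of acinar cells, read 9.35, 9.44 and 9.65 at E12.5 and 12.22, 12.52 and 12.13 at E15.5. The days did not overlap, and the difference was 2.81 ± 0.27 (adjusted p = 5.45e-07). Creb3l1, a membrane-bound factor that promotes secretory capacity, rose by 2.02 ± 0.14. Ptf1a, which with its partner drives enzyme genes, rose by 0.87 ± 0.29 (adjusted p = 0.0187), a call lost without the second E12.5, the second E15.5 or the third E15.5 replicate. The partners differed. Rbpjl, the acinar form, was at 1.13 ± 0.52 and not called, though all its E15.5 arrays lay above all its E12.5 arrays. With only the arrays compared in the fit, Rbpjl was called (adjusted p = 0.000751). Rbpj, the form that also serves Notch, fell by 0.67 (adjusted p = 2.47e-05). With the mean of its probe sets Rbpj was no longer called (adjusted p = 0.223).

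Genes for folding and quality control of protein in the ER rose broadly. Of 42 ER chaperones and unfolded protein response genes, 33 rose and 1 fell, and the median was 0.61. Without the first E12.5 replicate 26 rose, the lowest count when any array was left out. Pdia2, a pancreatic protein disulfide isomerase, had the second largest rise. It read 6.81, 6.60 and 6.65 at E12.5 and 12.26, 11.73 and 12.22 at E15.5 (5.38 ± 0.34, adjusted p = 5.12e-09). Erp27, an ER protein that binds disulfide isomerases, went from 8.03, 8.04 and 7.76 to 10.29, 10.60 and 10.58 (2.55 ± 0.16). Edem2, which trims glycans to mark misfolded proteins for disposal, rose by 2.30 ± 0.16, Fkbp11, a prolyl isomerase, by 2.24 ± 0.16, and Sdf2l1, a cofactor of ER chaperones, by 1.92 ± 0.17. Of the widely expressed members, Pdia3, Canx and Ppib were not called. Dnajb9, a co-chaperone, was the member that fell (-0.53), and it was not called after quantile or cyclic loess normalization.

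The ER stress element, CCAAT and CCACG separated by 9 bases, through which Atf6 and Xbp1 act, was in the promoter windows of 10 of 36 members (27.8%), against 21 of 15138 genes (0.139%), and in 0 of 22 translocation and 0 of 26 ER to Golgi genes. Of the 10, named here for their promoters after their values were seen, 8 rose, against 33 of 42 in the whole list. Derl3 (1.77), Ero1b (1.70), Creld2 (0.94), Pdia6 (0.90), Dnajc3 (0.77), Syvn1 (0.63), Hspa5 (0.28) and Calr (0.21) did, and Canx (0.09) and Hsp90b1 (-0.01) were not called. Derl3, a channel component for disposal of misfolded proteins, read 9.14, 9.09 and 9.41 at E12.5 and 10.95, 10.96 and 11.04 at E15.5 (1.77 ± 0.18, adjusted p = 7.93e-07). Hspa5, the master chaperone BiP, read 13.40, 13.53 and 13.45 and then 13.85, 13.62 and 13.75 (0.28 ± 0.10, adjusted p = 0.03). Neither pair of groups overlapped, yet the rise of Hspa5 was much the smaller. Both promoters are shown, since genes with this element differed this much. The Derl3 window is chr10:75893148-75893447 on the plus strand, with the element, on the other strand, at -156. The Hspa5 window is chr2:34771840-34772139 on the plus strand, with the element at -65.
Derl3: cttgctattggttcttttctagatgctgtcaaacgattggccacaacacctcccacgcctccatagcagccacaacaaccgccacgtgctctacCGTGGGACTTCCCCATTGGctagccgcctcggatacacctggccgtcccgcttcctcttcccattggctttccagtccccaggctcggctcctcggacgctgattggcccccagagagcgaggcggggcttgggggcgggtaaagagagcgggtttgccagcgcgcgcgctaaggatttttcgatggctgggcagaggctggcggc
Hspa5: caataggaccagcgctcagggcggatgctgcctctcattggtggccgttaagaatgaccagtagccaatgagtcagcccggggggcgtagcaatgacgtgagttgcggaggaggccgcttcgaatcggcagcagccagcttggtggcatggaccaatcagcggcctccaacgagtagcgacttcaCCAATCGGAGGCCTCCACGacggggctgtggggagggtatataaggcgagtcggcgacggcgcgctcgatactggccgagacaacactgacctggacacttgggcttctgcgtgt

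Entry into and exit from the ER moved the same way. Of 30 genes of translocation and signal peptide removal 19 rose and 2 fell (median 0.45), and of 29 genes of ER to Golgi transport 21 rose and 1 fell (median 0.48). Sec61b, a subunit of the translocation channel, rose by 1.37 ± 0.19, Sec11c, a signal peptidase subunit, by 1.22 ± 0.16 and Srpr, the receptor of the signal recognition particle, by 1.11. Sec61a2, an alternative channel subunit, fell by 1.06, and Sec62, which serves import after translation, fell by 0.92. On the exit side Sec16b, which organises ER exit sites, rose by 1.52, Kdelr3, which returns ER residents, by 1.46, the coat subunit Sec24d by 1.42, and the SNARE Bet1 was the member that fell (-0.41).

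Genes that supply amino acids rose as well. Of 28 such genes 19 rose and 3 fell, with a median of 0.69. Asns, asparagine synthetase, read 11.21, 10.87 and 11.36 at E12.5 and 12.83, 13.20 and 13.02 at E15.5 (1.87 ± 0.16, adjusted p = 2.05e-07), without overlap. Its change in FVF- cells was -0.10 and not called, and the changes of the sorts differed (interaction 1.98, adjusted p = 3.88e-05). Cbs, of the path from methionine to cysteine, rose by 1.95 ± 0.24, Gatm, of creatine synthesis, by 1.53 ± 0.16, the transporter Slc7a8 by 1.5 and the methyltransferase Gnmt by 1.36. The members that fell were the transporters Slc38a1, Slc38a2 and Slc43a1 (-0.63, -0.52 and -0.35), the last lost in 7 of 16 alternatives. Of 27 glycolysis and gluconeogenesis genes 16 rose and 0 fell (median 0.41). G6pc2 and Pcx, described with the beta cell genes below, led them, and Pkm (0.04) and Ldha (0.12) were not called.

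Of 14 islet hormone genes 9 rose and 0 fell, with a median of 0.67. Sst, somatostatin, the hormone of delta cells, read 8.57, 8.85 and 8.47 at E12.5 and 13.86, 13.12 and 13.43 at E15.5. The days were far apart, with a difference of 4.84 ± 0.24 (28.6-fold, adjusted p = 5.28e-10). Ins2, insulin, read 9.46, 9.12 and 9.10 and then 12.16, 12.76 and 12.15 (3.13 ± 0.23, adjusted p = 2.84e-08). Iapp, the amyloid peptide released with insulin, rose by 3.04, Ghrl, ghrelin, by 2.53 and Npy, neuropeptide Y, by 2.01. Gcg, glucagon, was at 14.40, 14.23 and 13.95 at E12.5 and at 14.13, 14.12 and 14.13 at E15.5. Its groups overlapped, and the difference of -0.07 ± 0.57 was not called (adjusted p = 0.933). Its readings at both days lay near the top of the scale, where the highest mean level of any gene was 15.16.

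The Sst promoter is shown because it holds the cAMP response element TGACGTCA (chr16:23890795-23891094, minus strand, GRCm38.p6, element at -48, in capitals). Of 13 hormone genes with a promoter in the table it was the only one with this element. Among 20 granule genes, Scg2, Pcsk1 and Chgb held it, and all 3 rose, as did 20 of 23 in the whole granule list. Of all 15138 genes 415 held the element (2.74%).
Sst: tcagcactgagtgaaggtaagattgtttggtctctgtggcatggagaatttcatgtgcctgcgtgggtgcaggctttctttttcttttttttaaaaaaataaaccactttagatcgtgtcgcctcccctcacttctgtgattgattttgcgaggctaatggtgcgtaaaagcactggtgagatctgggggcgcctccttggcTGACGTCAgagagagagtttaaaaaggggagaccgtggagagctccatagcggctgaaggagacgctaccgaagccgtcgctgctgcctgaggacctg

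Granule and prohormone processing genes rose almost throughout: 20 of 23 rose and 1 fell, with a median of 1.01. Slc30a8, the zinc transporter of insulin granules, read 7.12, 7.60 and 7.13 at E12.5 and 10.90, 10.19 and 10.85 at E15.5 (3.36 ± 0.17, adjusted p = 5.28e-10). Scgn, a calcium sensor of islet cells, rose by 3.12, Sytl4, a granule docking protein also named granuphilin, by 2.05, Scg2, a granin, by 1.92 and Ptprn2, a granule membrane phosphatase, by 1.71. Secisbp2l was the member that fell (-0.42), and it was not called after cyclic loess normalization or without the third E12.5 or second E15.5 replicate.

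Of 17 beta cell glucose sensing genes 11 rose and 1 fell, with a median of 1.01. Glp1r, the incretin receptor, rose by 2.41 ± 0.23 (adjusted p = 6.36e-07). G6pc2, an islet glucose-6-phosphatase, read 6.01, 6.58 and 6.37 at E12.5 and 8.26, 8.32 and 8.40 at E15.5, a rise of 2.01 ± 0.14 without overlap. Pcx, pyruvate carboxylase, rose by 1.95, and Ero1b, an oxidase that helps fold proinsulin, by 1.70. Slc2a2, the glucose transporter Glut2, went the other way. It read 11.79, 11.64 and 11.64 at E12.5 and 10.28, 9.83 and 9.87 at E15.5, again without overlap (-1.70 ± 0.23, adjusted p = 2.08e-05). Of 34 ion channels and transporters of endocrine cells 19 rose and 1 fell (median 0.45), led by the potassium channel Kcnq1 (2.41), the calcium pump Atp2a3 (2.34) and Kcnmb2 (1.35). The subunit of the ATP-sensitive channel Abcc8 rose by 1.01, a call lost without the third E12.5 replicate. Among 24 endocrine transcription factors 10 rose and 2 fell. Myt1 (1.69), Mafa (1.27), Pax6 (1.25) and Isl1 (1.20), factors of differentiating or mature endocrine cells, rose. Neurog3, which commits progenitors to the endocrine fate, read 12.06, 12.91 and 12.41 at E12.5 and 12.95, 13.02 and 13.01 at E15.5, and was not called (0.53 ± 0.35, adjusted p = 0.22). All its E15.5 arrays lay above all its E12.5 arrays, and with only the arrays compared in the fit it was called (adjusted p = 0.0375).

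Progenitor transcription factors declined. Of 23 measured 2 rose and 12 fell, with a median of -0.46, and 9 to 11 fell when each array was left out. Onecut3 read 10.87, 10.32 and 10.51 at E12.5 and 8.57, 8.57 and 8.71 at E15.5 (-1.95 ± 0.13, adjusted p = 1.05e-08), and the days did not overlap. Its relative Onecut1 lay between 12.89 and 13.01 at E12.5 and then read 11.97, 11.34 and 11.53. Those arrays did not overlap either, but its call was close to the threshold (-1.35 ± 0.54, adjusted p = 0.0474) and was lost in 10 of 16 alternatives. Hhex, a homeobox factor of the foregut and later of delta cells, fell by 1.27 ± 0.17, Mycn, a growth-promoting factor, by 1.26 ± 0.10, and Prox1, a homeobox factor of progenitors, by 1.17 ± 0.37. Pdx1, Nkx6-1 and Sox9, which mark pancreatic progenitors, fell by 0.65, 0.73 and 1.04. The members that rose, Ptf1a and Gata4, are acinar factors too. Of 22 ductal genes 6 rose (3 without the third E12.5 replicate) and 2 fell. The share of risers was close to that of all genes (27.6%), and the share of fallers was lower (19.3% of all genes). Clu, clusterin, rose by 1.85 and Krt19, a duct keratin, by 1.03, Sox9 fell, and Muc1 (0.85) was not called.

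The transcription factors of the SoxC group all fell. Sox11 read 10.75, 10.52 and 10.89 at E12.5 and 7.71, 7.55 and 8.21 at E15.5, the second largest fall (-2.90 ± 0.25, adjusted p = 1.64e-07). Sox4 fell by 0.97 and Sox12 by 0.52, so the fall of Sox11 was the largest of the group. Of 17 oncofetal timing genes, which are high in embryonic tissues and decline with age, 0 rose and 13 fell, with a median of -0.62. Igf2bp1, an RNA-binding protein that stabilises growth-related messages, read 12.03, 11.82 and 11.98 and then 10.12, 10.68 and 10.29 (-1.58 ± 0.12, adjusted p = 5.92e-08). Hmga2, a chromatin protein, went from 12.93, 12.80 and 12.81 to 11.55, 11.32 and 11.28 (-1.46 ± 0.26). In FVF- cells Hmga2 fell by 2.72, and the falls differed (interaction 1.26, adjusted p = 0.0288). Tut4, which adds uridine to let-7 precursors, fell by 1.56, and the zinc finger factors and DNA-binding proteins Sall4 and Arid3b fell by 1.35 and 1.22. Sall4 was called in FVF+ cells only (-0.05 in FVF-), and its interaction was called (adjusted p = 0.000416).

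**Figure D3:**
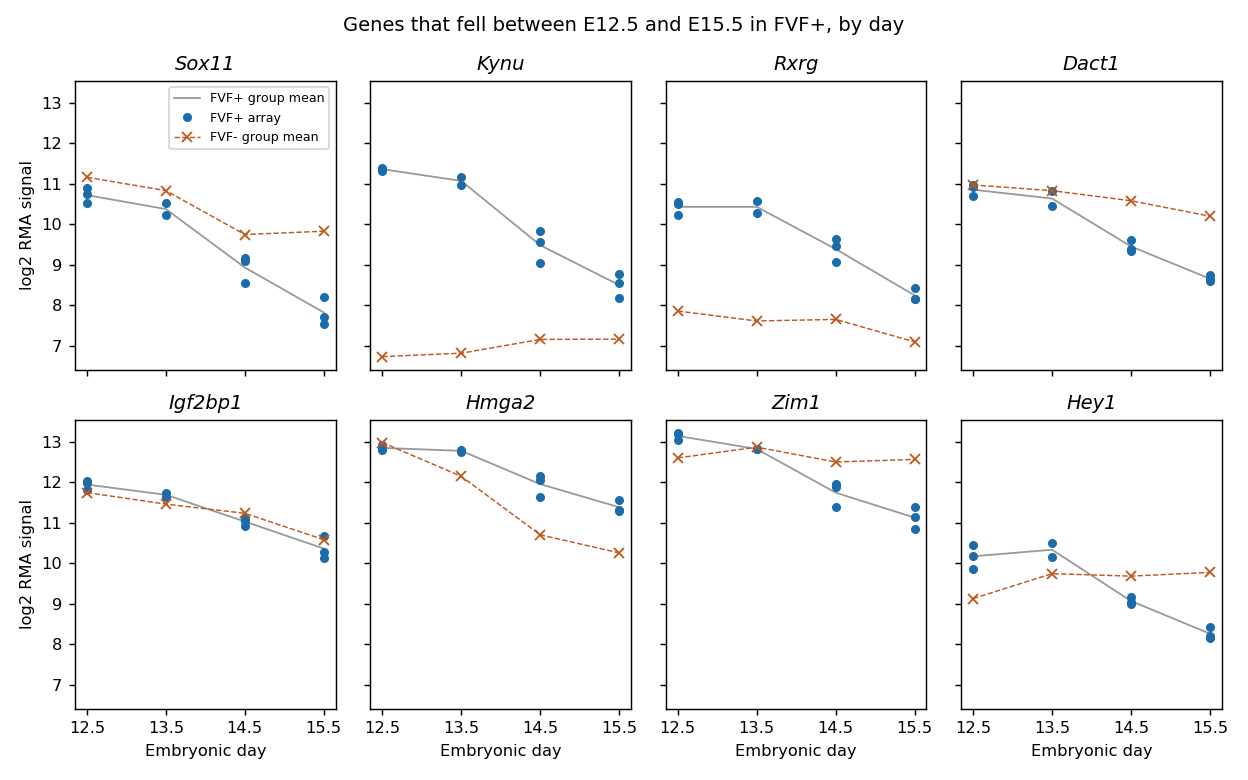
Log2 signal by embryonic day of 8 genes that fell in FVF+ cells, with points for single FVF+ arrays, a solid line for the FVF+ group mean, and crosses with a dashed line for the FVF- group mean. In every panel all 3 E15.5 arrays lie below all 3 E12.5 arrays, and most of each drop lies after E13.5.

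Imprinted growth regulators, expressed from 1 parental copy, changed unevenly: 2 of 24 rose and 10 fell, where 27.6% and 19.3% of all genes did. Zim1, an imprinted zinc finger gene, read 13.19, 13.21 and 13.03 at E12.5 and 11.38, 10.85 and 11.15 at E15.5 (-2.02 ± 0.19, adjusted p = 5.39e-07). The cell cycle inhibitor Cdkn1c fell by 1.21, Mest by 0.88 and the growth factor Igf2 by 0.66. Rian, a non-coding RNA, fell by 1.38, a call lost without the second replicate of either day. Nnat, neuronatin, a small membrane protein found in beta cells, ran against the group, with a rise of 1.04 in FVF+ and a fall of 1.18 in FVF- cells (interaction 2.22, adjusted p = 1.58e-05).

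Of 33 mitosis genes 1 rose and 21 fell, with a median of -0.49, while 0 rose and 0 fell in FVF- cells, where the median was 0.08. After quantile or cyclic loess normalization 16 fell, and 12 to 21 fell when each array was left out, the fewest without the third E12.5 replicate. Bub1, a spindle checkpoint kinase, read 11.28, 11.40 and 11.60 at E12.5 and 9.68, 9.89 and 9.94 at E15.5 (-1.59 ± 0.26, adjusted p = 0.000137). Cenpe, a kinetochore motor, fell by 1.49, Smc4, a condensin subunit, by 1.43, and Nuf2, of the kinetochore, by 1.22. The mitotic kinases Cdk1 (0.09) and Plk1 (-0.03) were not called, nor was Mki67 (-0.24), a general marker of cycling cells, and the E12.5 and E15.5 arrays of Cdk1 and Plk1 overlapped. Birc5, survivin, was the member that rose (0.50), a call lost in 4 of 16 alternatives. Of 32 DNA replication genes 2 rose and 13 fell, with 8 falling without the first E15.5 replicate and 15 without the second. The shares over all genes tested were 27.6% and 19.3%. Of 28 regulators of DNA methylation and chromatin 0 rose and 12 fell, led by the heterochromatin protein Cbx5 (-1.14), the remodeller Chd7 (-1.06) and Ezh2 (-1.05), which methylates histones in the Polycomb complex. In FVF- cells 12 of these regulators fell too.

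The Notch list, whose signals hold progenitors back from differentiation, had 12 fallers of 28, and its 8 risers were close to the share of all genes (27.6%). Hey1, a target gene, read 9.87, 10.19 and 10.46 at E12.5 and 8.21, 8.42 and 8.16 at E15.5 (-1.91 ± 0.17, adjusted p = 1.95e-07), while it rose by 0.65 in FVF- cells. The co-activator Maml2 fell by 1.43 (-0.88 with the mean of its probe sets), the receptor Notch3 by 1.30, the ligand Jag1 by 1.03 and the feedback target Nrarp by 0.93, with Nrarp up by 1.47 in FVF- cells (interaction -2.40, adjusted p = 1.8e-05). Risers were the ligand-like Dner (1.28), Sel1l (1.12), which is best known for disposal of misfolded ER proteins, the glycosyltransferases Lfng and Mfng (0.94 and 0.73) and Hes5 (0.65).

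Of 21 planar cell polarity genes, which orient cells within a sheet, 2 rose and 9 fell, where 27.6% and 19.3% of all genes did. Dact1, which binds the Dishevelled proteins, read 10.96, 10.69 and 10.91 at E12.5 and 8.59, 8.64 and 8.74 at E15.5, with no overlap (-2.20 ± 0.12, adjusted p = 1.15e-09). Fjx1 fell by 1.23, the protocadherin Dchs1 by 1.11 and the core component Vangl2 by 1.02. The core cadherin Celsr3 rose by 1.02. Of 32 primary cilium genes 5 rose (3 without the third E12.5 and 2 without the first E15.5 replicate) and 15 fell. Cep290, of the ciliary transition zone, fell by 1.62 ± 0.31, from 8.35, 8.69 and 8.45 to 7.05, 6.43 and 7.16. Ift74, of intraflagellar transport, fell by 1.5 and the motor subunit Kif3a by 1.12.

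Within the retinoic acid pathway, which patterns the endoderm, 8 of 20 genes rose and 4 fell. The share of risers was above that of all genes (27.6%), and the share of fallers was close to it (19.3% of all genes). The enzyme Aldh1a1, which makes retinoic acid, read 7.74, 7.62 and 7.79 at E12.5 and 10.42, 10.76 and 10.55 at E15.5 (2.86 ± 0.16, adjusted p = 1.72e-09). The receptor Rxrg moved in the opposite direction, from 10.51, 10.24 and 10.54 to 8.15, 8.44 and 8.15 (-2.18 ± 0.16, adjusted p = 2.31e-08). Neither gene's groups overlapped. The binding protein Crabp2 rose by 0.90, and its relative Crabp1 fell by 0.56, a call lost in 5 alternatives.

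Secreted proteins best known from the liver, which shares its origin with the pancreas, had 13 fallers of 37, of which 9 fell by at least 2-fold. The 11 risers were close to the share of all genes (27.6%), none of them rose 2-fold, and 6 rose after quantile or cyclic loess normalization and 7 without the second or the third E12.5 replicate. Serpina1c, an antitrypsin, read 13.28, 12.53 and 12.76 at E12.5 and 9.49, 10.69 and 9.85 at E15.5 (-2.85 ± 0.50, adjusted p = 0.000237). Its relative Serpina1d fell by 2.28, a close copy whose signal may be shared. Fgg, a fibrinogen chain, fell by 2.29 ± 0.13, the clotting factor F5 by 1.73 and Trf, transferrin, by 1.39. Crp, C-reactive protein, was among the 10 largest falls, from 10.40, 10.61 and 10.79 to 7.79, 8.16 and 7.79 (-2.69 ± 0.13, adjusted p = 5.28e-10). The other large falls were Stxbp4 (-3.09 ± 0.37), which binds syntaxin, Kynu (-2.86 ± 0.17), an enzyme of tryptophan breakdown, Rimklb (-2.77), Igfbp5 (-2.51), which binds insulin-like growth factors, Abca8a (-2.35), a transporter, and the zinc finger genes Zfp985 and Zfp141. Over the alternatives the fall of Stxbp4 ran from -3.41 to -2.21 and stayed called. Kynu read 11.37, 11.32 and 11.39 and then 8.55, 8.18 and 8.77, while its FVF- means were 6.74 at E12.5 and 7.17 at E15.5.

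Zfp985 and Zfp141 belong to a large family, which was counted after these values were seen. Zfp985 read 9.24, 9.26 and 9.34 at E12.5 and 6.20, 6.50 and 6.57 at E15.5, and Zfp141 fell by 2.69. With the mean of their probe sets in place of the brightest, these falls were smaller (-1.63 and -1.58) and still called. Of 312 genes named Zfp with a number, zinc finger proteins that mostly bind DNA and in large part repress transposable elements and genes, 22 rose (7.05%; 13 without the second or the third E12.5 replicate) and 168 fell (53.8%), with 46 of them falling and 0 rising by at least 2-fold. The median was -0.39 against 0.09 over all genes. Their mean log2 signal was 9.21, 9.17 and 9.24 at E12.5 and 8.79, 8.70 and 8.80 at E15.5, so that every E15.5 array lay below every E12.5 array. In FVF- cells 6 rose and 59 fell, with a median of -0.10, and the interaction was called for 61 genes with the lower change in FVF+ and for 12 with the higher. Between 165 and 169 fell after each other normalization, and 140 to 156 when each array was left out. Genes of this family resemble each other, so probes may share signal. Of 33 Cep genes, which encode centrosome proteins, 2 rose (6.06%) and 19 fell (57.6%), against 27.6% and 19.3% of all genes.

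**Figure D4:**
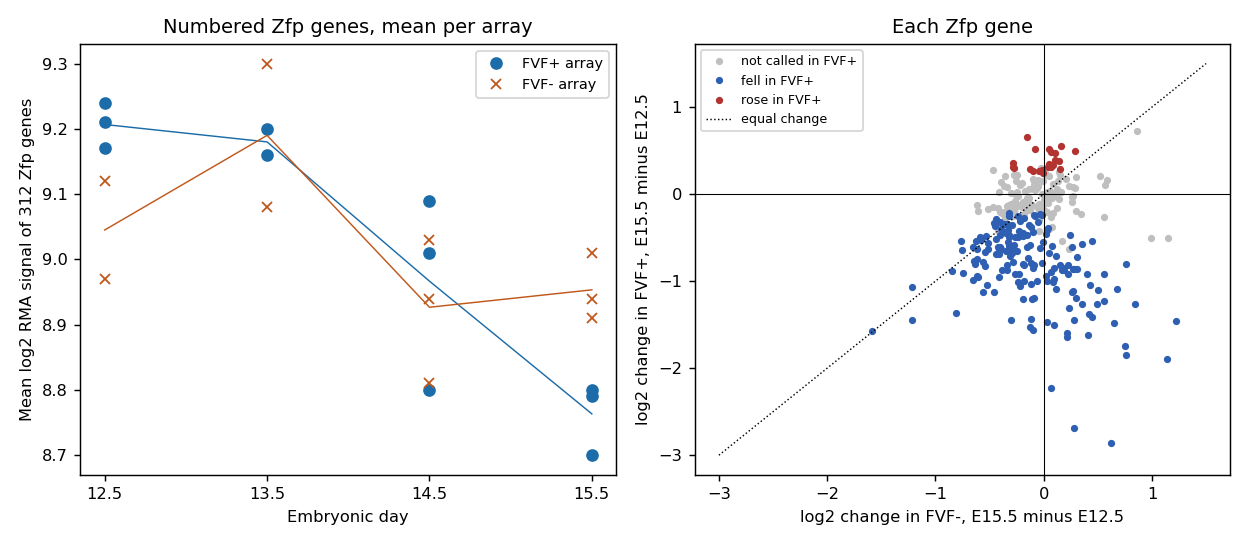
Left, mean log2 signal of the 312 numbered Zfp genes in each array by embryonic day, FVF+ as circles and FVF- as crosses, with lines through the group means. Right, the log2 change of each of these genes in FVF- (x) and FVF+ (y) cells, coloured by its call in FVF+, with a dotted line of equal change. FVF+ means go from 9.17 or above at E12.5 to 8.80 or below at E15.5, and most called genes lie below 0 on the y axis.

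MicroRNA host or precursor transcripts were read by 293 probe sets named for microRNA genes, of which 47 rose and 49 fell, 1 and 14 of them by at least 2-fold. Over all genes tested 27.6% rose and 19.3% fell, so as deposited both shares were lower among these probe sets. After quantile and cyclic loess normalization 28 and 24 rose, and 61 and 64 fell, while 31 rose without the third E12.5 replicate and 30 fell without the second. A whole-transcript array labels longer RNA, so the mature microRNA was not measured. Mature sequences from RefSeq (GRCm38.p6) matched 268 of the 293. Those below belong to the 5 genes with a mature sequence that fell most, to fallen genes that share a seed, and to Mir375, which alone rose by at least 2-fold, and show the seed (bases 2 to 8) in capitals. miR-181b-5p comes from both Mir181b-2 and Mir181b-1, miR-379-3p and miR-411-3p share the seed AUGUAAC, let-7c-5p and let-7d-5p share the seed GAGGUAG, and for Mir375 the table holds the 5p arm.
miR-181b-5p: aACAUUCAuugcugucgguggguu
miR-19b-3p: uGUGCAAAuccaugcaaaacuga
miR-379-3p: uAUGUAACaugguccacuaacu
miR-411-3p: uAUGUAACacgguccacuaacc
miR-30e-5p: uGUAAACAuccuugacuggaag
let-7c-5p: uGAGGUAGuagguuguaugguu
let-7d-5p: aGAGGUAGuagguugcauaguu
miR-375-5p: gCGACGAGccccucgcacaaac

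Mir181b-2 read 9.6, 9.55 and 9.6 at E12.5 and 6.80, 6.43 and 7.34 at E15.5 (-2.73 ± 0.30, adjusted p = 3.13e-06), and Mir181b-1, which gives the same mature form from another chromosome, fell by 1.5 ± 0.42. Both genes had no overlap between days. Mir19b-1, of a cluster that promotes growth, fell by 1.65, Mir379 by 1.51, Mir30e by 1.47, Mir411 and Mirlet7c-1 by 1.19 each and Mirlet7d by 1.01. Mir375, a microRNA of islet cells, read 9.36, 8.82 and 9.08 and then 9.55, 11.01 and 10.60, a rise of 1.30 ± 0.26 (adjusted p = 0.000632) with the first E15.5 array close to the E12.5 range.

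The rises came mostly between E13.5 and E14.5, whereas the falls were spread over that step and the next. For genes called with at least a 2-fold rise, a median of 8.9% of the full difference was present at E13.5 and 77.8% at E14.5, and for those with such a fall 7.1% and 51.2%. These medians share the E12.5 and E15.5 arrays with the calls and are descriptions, and FVF+ cells had fewer arrays at E13.5 than at the other days. Pdia2 had group means of 6.86 at E13.5 and 9.76 at E14.5 on the way to its E15.5 level. Sst stood at 8.87 and 12.16, and Cpb1 at 6.95 and 10.17. Sox11 passed through 10.38 and 8.93, and Hey1 through 10.34 and 9.07.

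In FVF- cells 3945 genes were called over the same days (20.4%), on fewer arrays, of which 2073 rose (10.7%) and 1872 fell (9.7%). The changes of the sorts differed for 3786 genes (interaction, 19.6% called), 2083 with the higher change in FVF+ (10.8%) and 1703 with the lower (8.83%). Of the 413 genes that rose at least 2-fold in FVF+, the interaction was called with the higher change in FVF+ for 295 and with the lower for 5. Of the 629 that fell as much it was called with the lower change for 395 and with the higher for 2. Both sets were picked for a large FVF+ change, which is itself a part of the interaction. These counts therefore follow in part from that choice and are descriptions. Sst differed most among the rises, at 0.24 ± 0.27 in FVF- cells (interaction 4.60 ± 0.36, adjusted p = 5.15e-07). Of 42 ER chaperones and unfolded protein response genes 15 rose in FVF- cells, and for 19 the rise was higher in FVF+. For Ctrb1 the FVF- change of 5.42 was the greater (interaction -4.20, adjusted p = 0.000116), from a mean of 8.46 to 13.88, while FVF+ cells started at 13.32 or above.

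**Figure D5:**
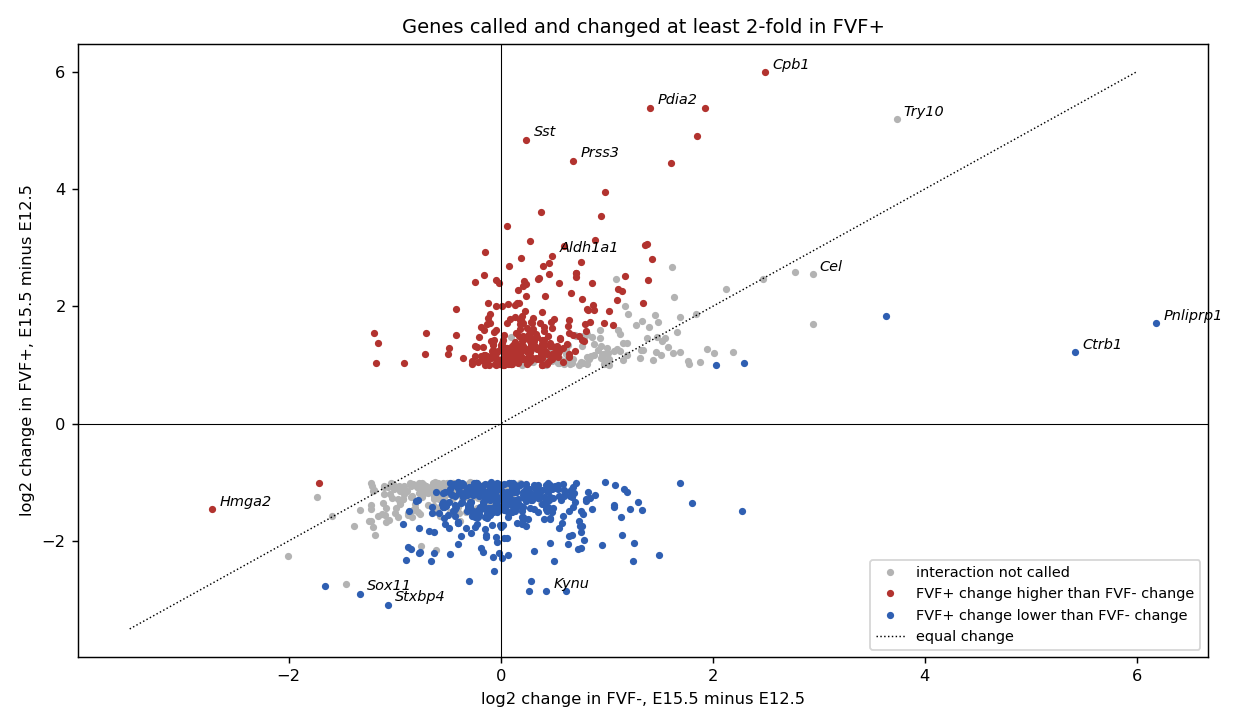
Genes called and changed at least 2-fold in FVF+ cells, with the log2 change in FVF- cells (x) against that in FVF+ cells (y), coloured by whether the changes differed (interaction), and a dotted line of equal change. Of the 413 rises 295 lie in the class with the higher change in FVF+, and of the 629 falls 395 in the class with the lower. The genes were picked for their FVF+ change, which the interaction contains, so these counts are descriptions.

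The split between rises and falls depended on signal level. Of the 6433 dimmest genes 1873 rose and 231 fell, of the 6435 in the middle 2190 rose and 1457 fell, and of the 6428 brightest 1254 rose and 2043 fell. The lower quartile of all probe sets was 7.01, 6.98 and 6.93 in the E12.5 arrays and 7.15, 7.13 and 7.20 in the E15.5 arrays, and the upper quartile 10.35, 10.35 and 10.41 against 10.24, 10.28 and 10.28. Rises made up 58.8% of calls as deposited, 53.1% after quantile normalization, 51.9% after cyclic loess and 44.7% without dim genes. Counts in dim families moved with the normalization. Of 37 Hox genes 22 rose and 0 fell, their mean going from 7.19 to 7.48, but 7 rose after quantile and 6 after cyclic loess normalization. Of 1012 olfactory receptor genes, which serve the sense of smell, 177 rose and 4 fell, and the share of risers (17.5%) was below that of the dimmest genes (29.1%) and of all genes (27.6%). After those normalizations 46 and 38 rose, and 95 to 189 when each array was left out, with the fewest without the third E15.5 or the third E12.5 replicate. Among the secretion genes, 13 proteases rose after either of them, as did 31 and 34 of the ER chaperones and unfolded protein response genes.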

How the data were processed

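Expression was measured on Affymetrix arrays in FVF+ and FVF- cells sorted from embryonic pancreas. RNA was isolated with the RNeasy Mini kit of Qiagen and amplified and labelled with WT kits of Ambion and Affymetrix, per the labels. The authors deposited log2 signals made by RMA (affy 1.44.0, per the submitters' processing notes), and the settings of RMA are not stated. Of 23305 probe sets, 20728 had 1 gene symbol in the platform annotation, 1174 several and 1403 none. For 804 genes with several probe sets the one with the highest mean was kept, which left 19296 genes.

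Group means of all 8 groups (21 arrays, 13 residual degrees of freedom) were fitted in limma 3.58.1 (R 4.3.3) with empirical Bayes moderation, two-sided, with no covariate. P-values were adjusted by Benjamini and Hochberg over 19296 genes in each of 3 comparisons, and called under 0.05. Arrays give no depth, and their number limits the precision. The fit was tested on simulated data. Members and lists were chosen with earlier results of these data known. Named genes were the 10 largest rises and falls without overlap between days, up to 5 called members a direction and 3 not called from each list, the 5 largest interactions in either direction, and marker genes. Alternatives covered probe sets, dim genes, normalization, moderation, array weights, the arrays in the fit, a replicate block and leaving out each array.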

Additional observations from a re-analysis of the deposited data

Results flagged for a closer look

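For 10 genes the E12.5 to E15.5 change differed most between the sorts, by the interaction of sort with day, in log2 units as FVF+ change minus FVF- change. Each was called in all 21 alternatives run for it. Higher in FVF+ were Sst (4.60), Pdia2 (3.97), Prss3 (3.81), Cpb1 (3.50) and Rnase1 (3.46). Lower in FVF+ were Pnliprp1 (-4.47), Serpina6 (-4.20), Ctrb1 (-4.20), Agtr2 (-3.90) and Aspn (-3.77). Of the latter, the lipase-related gene Pnliprp1 rose in both sorts, from 12.70, 12.95 and 12.82 to 14.54, 14.63 and 14.44 in FVF+ cells and from a mean of 6.38 to 12.57 in FVF- cells. Its E15.5 readings in FVF+ cells, like those of Ctrb1, lay near the top of the scale. The highest mean level of any gene was 15.16. The part that the high FVF+ levels have in these interactions was not tested. Serpina6, a steroid-binding serpin, the angiotensin receptor gene Agtr2 and the matrix gene Aspn changed by 4.52, 4.83 and 3.98 in FVF- cells. The FVF+ call of Agtr2 was lost in 7 of 16 alternatives.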

How the results depend on the processing

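Counts of called genes ran from 7339 after cyclic loess normalization to 10320 with array weights, except without dim genes (5982 of 11485 genes, with 2672 rises, fewer genes being tested), and from 7090 to 8243 when each array was left out, where rises ran from 4089 to 4839 and falls from 3001 to 3404. With a 2-fold minimum added, 1042 were called, 413 rises and 629 falls. The interaction, 3786 as reported, gave 2519 without dim genes, 6009 with array weights, 1102 with the 2-fold minimum, and 1818 to 3443 when each array was left out, the lowest without the second FVF- replicate of E12.5, where the lone array left is assumed to vary like the others. Under these settings 1 gene was called with the opposite sign, with the mean of its probe sets. Same-numbered arrays of the 2 days correlated at -0.045, -0.303 and 0.069 in their deviations from the group means, so they share a number and no pairing was shown, and with a replicate block 9110 genes were called, 8863 of them called without it. Counts of the numbered Zfp, Cep and olfactory receptor families were alternatives chosen after seeing the data. Arrays give no counts, so dim genes carry the least information.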
